A study of Rattus norvegicus with 48 samples.

Results

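The genes described here are 10 members of the transforming growth factor beta (TGF-beta) pathway and its Smurf ligases, out of 32285 gene identifiers measured in rat lung. They were taken by name: the ligands Tgfb1, Tgfb2 and Tgfb3, the receptors Tgfbr1 and Tgfbr2, the signal carrier Smad3, the inhibitory Smad6 and Smad7, and the ubiquitin ligases Smurf1 and Smurf2. The set was put together because Smurf2 was higher in exposed lungs at day 27, so every comparison of exposed with air lungs at day 27 is given for these genes as a description, without a p-value. RNA came from a piece of lung of 48 male Sprague-Dawley rats in 6 groups of 8. At each time, 8 rats had inhaled air and 8 had inhaled a mixture of fracking sand dust at 30 mg/m3 and diesel exhaust particles at 1.0 mg/m3. Fracking sand dust is the mineral dust released when sand for hydraulic fracturing is handled. Both were given by whole-body inhalation for 6 hours a day on 4 days, and lungs were taken 1, 7 or 27 days afterwards. The labels name no genetic change in any group, say that rats were housed in pairs without saying which shared a cage, and name no sequencing run.

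TGF-beta ligands are secreted in a latent form, stored on matrix proteins, and released in part by integrins. The freed ligand binds the type 2 receptor, which recruits and activates the type 1 receptor. The type 1 receptor phosphorylates Smad3 and its relative Smad2, which enter the nucleus with Smad4 and switch on matrix and feedback genes. Smad7, itself a target, brings the HECT-type ligases Smurf1 and Smurf2 to the receptor, which is then ubiquitinated and degraded, and Smad6 acts mainly on the bone morphogenetic protein (BMP) branch. In the lung the pathway is known for its part in alveolar growth, matrix deposition and fibrosis. The data are levels of messenger RNA, and neither protein nor Smad phosphorylation was measured.

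Promoters are shown for the members whose levels moved together from library to library (below), so that their sequences can be set beside the values. Part of this joint variation did not hold within every day or with a further measure removed (below), and shared regulation was not tested. The lines give the 250 bases before the annotated start of Smurf2, of the receptors Tgfbr1 and Tgfbr2, which varied in the same direction as Smurf2, and of the ligand Tgfb1, which varied in the opposite one. They are RefSeq sequences of the build GRCr8, 5' to 3' on the gene's strand, and 8 of the 10 members had an entry. Capitals mark the motifs searched on both strands: the palindromic Smad site GTCTAGAC, the Smad box CAGAC, the GC box GGGCGG and the CCAAT box CCAAT.

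Smurf2, chr10:92361781-92362030 (minus strand): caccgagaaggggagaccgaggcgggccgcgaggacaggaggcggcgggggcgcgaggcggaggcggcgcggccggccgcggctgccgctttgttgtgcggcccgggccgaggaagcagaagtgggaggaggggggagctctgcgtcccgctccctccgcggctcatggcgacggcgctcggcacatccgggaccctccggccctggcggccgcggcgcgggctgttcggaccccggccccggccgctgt
Tgfbr1, chr5:66449148-66449397 (plus strand): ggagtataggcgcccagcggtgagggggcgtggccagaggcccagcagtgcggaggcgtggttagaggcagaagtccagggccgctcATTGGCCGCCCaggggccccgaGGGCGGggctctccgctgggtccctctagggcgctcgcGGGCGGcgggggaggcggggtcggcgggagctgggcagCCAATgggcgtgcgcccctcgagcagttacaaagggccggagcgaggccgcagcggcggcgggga
Tgfbr2, chr8:124761470-124761719 (minus strand): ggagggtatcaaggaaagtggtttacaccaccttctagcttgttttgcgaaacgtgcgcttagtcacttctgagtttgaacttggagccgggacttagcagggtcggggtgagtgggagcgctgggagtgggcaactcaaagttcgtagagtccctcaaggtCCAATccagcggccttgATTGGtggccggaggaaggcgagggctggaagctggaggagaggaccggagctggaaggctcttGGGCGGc
Tgfb1, chr1:90324062-90324311 (plus strand): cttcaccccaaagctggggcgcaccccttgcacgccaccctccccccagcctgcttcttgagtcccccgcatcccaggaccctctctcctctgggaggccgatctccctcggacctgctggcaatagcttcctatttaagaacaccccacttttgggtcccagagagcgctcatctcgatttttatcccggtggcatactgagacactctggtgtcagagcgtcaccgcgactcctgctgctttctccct

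The Smurf2 stretch held none of the 4 motifs, and 79.2% of its bases were G or C, against a median of 51.2% over all promoters of the same length. The Tgfbr1 stretch held 3 GC boxes and 2 CCAAT boxes, and the Tgfbr2 stretch 1 GC box and 2 CCAAT boxes. In Tgfbr1 a CCAAT box on the reverse strand lies directly beside a GC box, without overlap. The Tgfb1 stretch held none of the 4. Over 33469 promoters, 0.173% held the palindromic Smad site, 42.9% the Smad box, 30.5% the GC box and 34.0% the CCAAT box. Neither kind of Smad motif was found in the 250 bases of any of the 8 matched members, which says only that these letters are not in these windows.

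Counts per library summed to between 9445687 and 14400337. All 10 members were well covered, from 220 counts for Tgfb3 in its lowest library to 4426 for Smurf2 in its highest, and all 10 passed the low-count filter at every day. Levels are given in CPM, counts scaled to a common library total, which are not corrected for gene length, so they are compared between libraries and not between genes. In a piece of lung, fewer cells of a type and less RNA per cell cannot be told apart. The tissue label fitted its markers: the alveolar type 2 cell list, which holds the surfactant gene Sftpc, summed to between 14129 and 21939 CPM in every library. In 4 groups (exposed at day 1, air and exposed at day 7, air at day 27) 1 pair of libraries was closer than any other, differing by 1.44 to 1.67 times counting noise, against at least 2.42 times in the other 164 pairs. Each library is counted as an animal here, and values with the closest pair summed are given where they change a result. Where nothing else is stated, tests set the groups against the spread between these libraries.

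Smurf2, a ligase that marks TGF-beta receptors and Smads for degradation, was the member with the widest gap between air and exposed lungs at day 27. At day 1, air libraries had a lowest, median and highest level of 258.7, 276.9 and 301 CPM, and exposed libraries 240.1, 275.2 and 298.5 CPM. At day 7 air libraries ran from 274.4 to 307 CPM around a mean of 292.5 ± 10.4 CPM (SD, n = 7 with the closest pair averaged), and exposed libraries had 294.5, 313 and 331 CPM. At day 27 air libraries had 237, 258.7 and 283.5 CPM and exposed libraries 293.4, 313 and 329 CPM. The groups overlapped at days 1 and 7. At day 27 each of the 8 exposed libraries lay above the highest air library, a pattern seen for 0.225% of all genes at that day in this direction, which is the comparison the genes were chosen on.

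**Figure D1:**
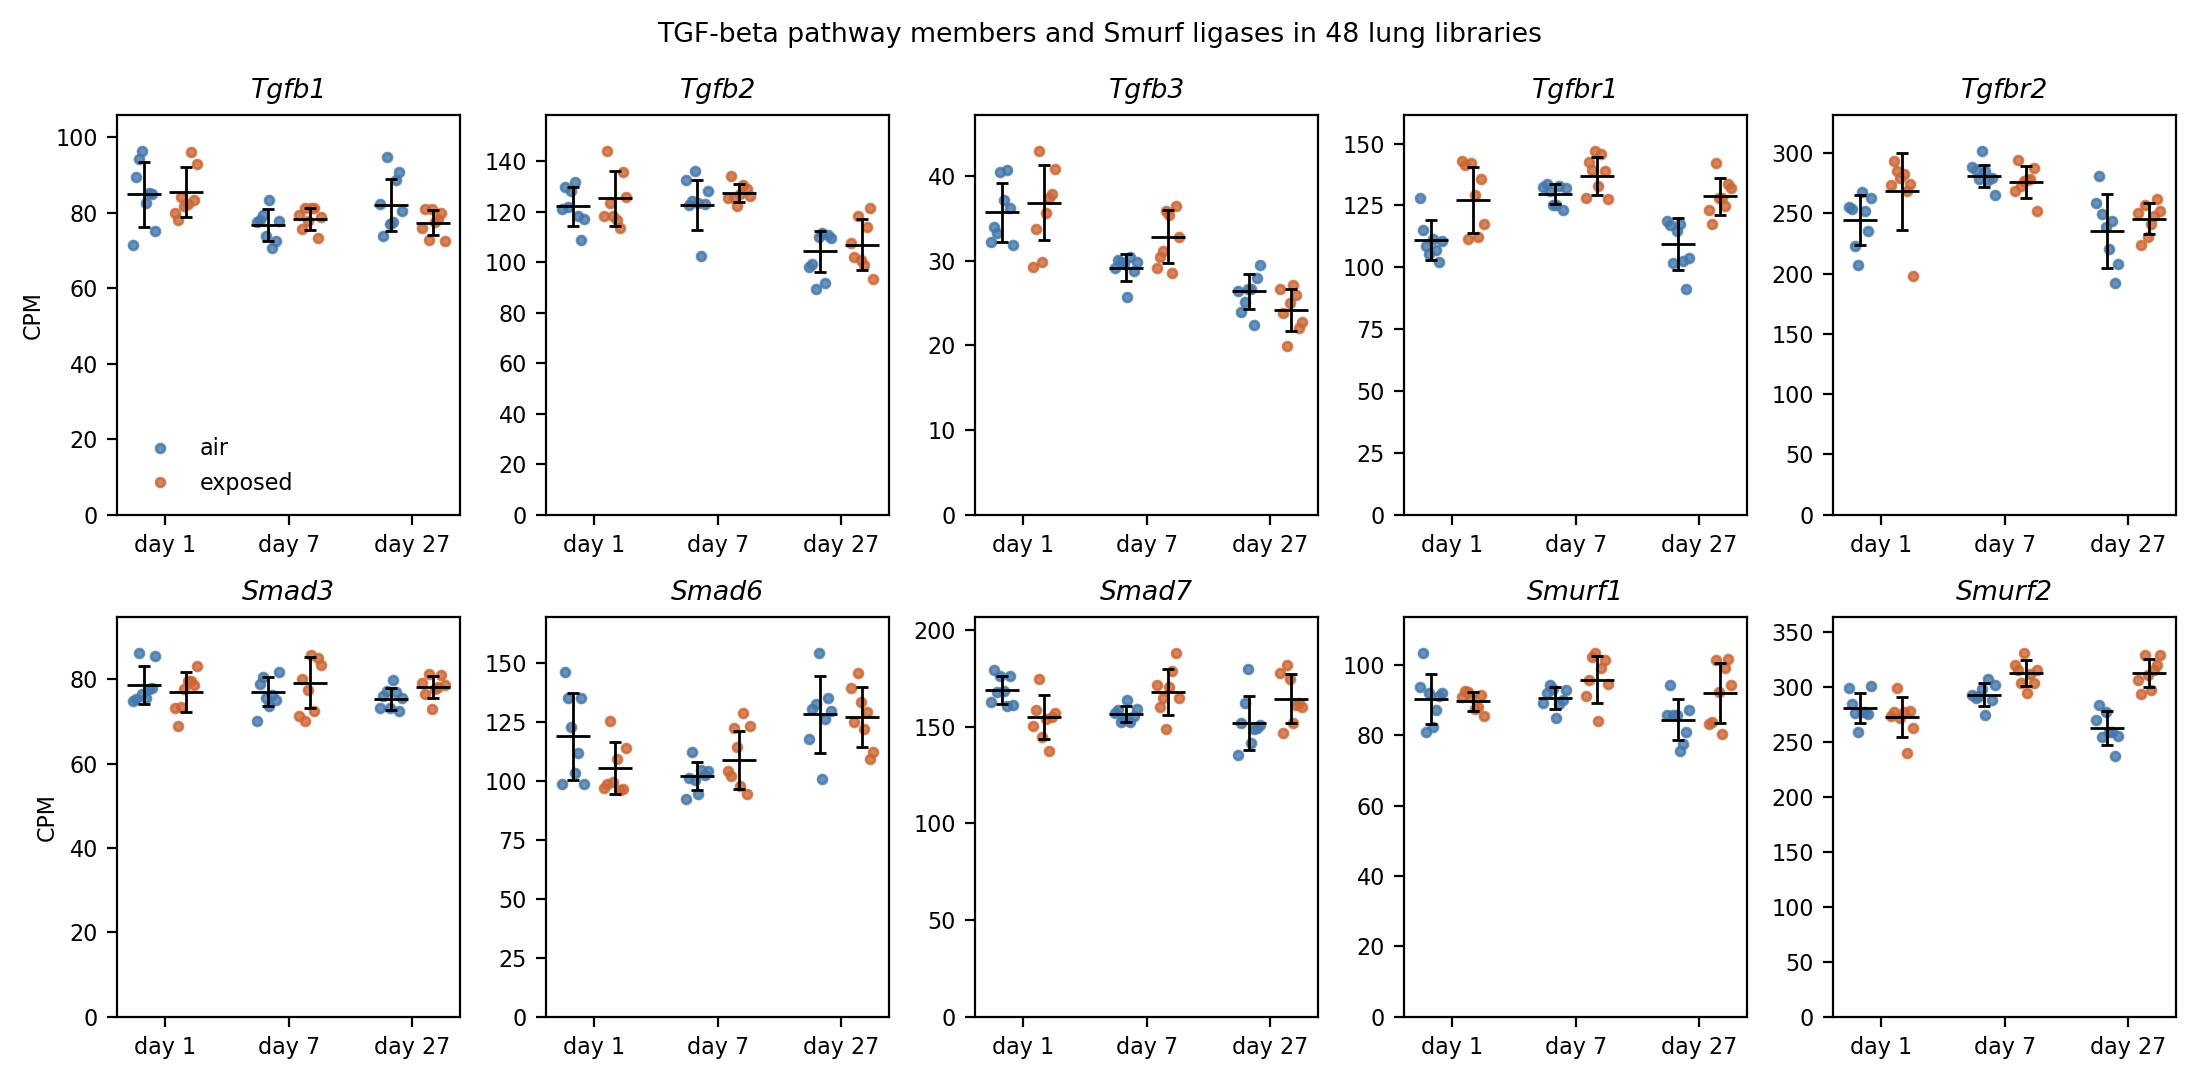
Level of each member in CPM (vertical axis, starting at 0) in the 48 libraries by day, air in blue and exposed in orange, each point 1 library. Horizontal bars are means and whiskers 1 SD, with the closest pair of a group averaged first. The Smurf2 points of air and exposed lungs separate at day 27, where the highest air library is at 283.5 CPM and the lowest exposed library at 293.4 CPM.

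In log2 fold changes of exposed against air, Smurf2 stood at -0.04 ± 0.044 (SE, 8 libraries per group throughout) at day 1, with 7 of 8 exposed libraries below the air mean and an edgeR adjusted p of 0.826. At day 7 it stood at 0.09 ± 0.031 with 8 of 8 exposed libraries above the air mean, and the edgeR adjusted p of 0.446 did not pass the threshold of 0.05. At day 27 the value was 0.26 ± 0.040, a level 19.6% higher. The exposure effect at day 7 minus that at day 1 was 0.14 ± 0.051, which did not pass either (edgeR adjusted p = 0.542). At day 27 minus day 1 the same difference was 0.30 ± 0.051, a description for the reason above.

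The gap at day 27 can be followed in each arm. Among air lungs the log2 change of Smurf2 was -0.10 ± 0.036 from day 1 to day 27 and -0.16 ± 0.036 from day 7 to day 27, given without a test because they use the day 27 air libraries. Among exposed lungs its level at day 27 differed from that at day 7 by 0.00 ± 0.036. The rise in exposed lungs lay between days 1 and 7. That contrast, looked at after the levels had been seen, gave 0.19 ± 0.036 (edgeR adjusted p = 0.00472), and Smurf2 was the 1 member of 10 that passed it, where 2.14% of all genes did. It passed in 48 of 48 fits that each left out 1 library. Smurf2 in air lungs changed by 0.06 ± 0.036 over the same days, which did not pass (edgeR adjusted p = 0.292). As stated above, the difference between these changes did not pass.

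Another measure of the libraries moved with Smurf2. The mean log2 CPM of 66 ribosomal protein genes, computed after seeing the data, ran from 8.16 to 8.65 in air lungs at day 27 (8.41 ± 0.17, SD, n = 8) and from 8.09 to 8.36 in exposed lungs (8.18 ± 0.088, SD, n = 8). In the other 4 groups it lay between 7.92 and 8.32. With group means removed, libraries with a higher ribosomal protein level had a lower Smurf2 level, with Pearson's r = -0.60 and Spearman's rho = -0.56 over 48 libraries (permutation p = 0.00015 and 0.00022, adjusted over the 10 members 0.000375 and 0.00052). Without the 2 libraries of the most extreme ribosomal protein level r was -0.55. Within days r was -0.55 at day 1, 0.06 at day 7 and -0.85 at day 27, so the relation did not hold within day 7. With the ribosomal protein level as a covariate, the day 27 difference in Smurf2 was 0.15 in place of 0.26, and no gene of 14192 was called. What part this measure has in the Smurf2 result was not tested.

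**Figure D2:**
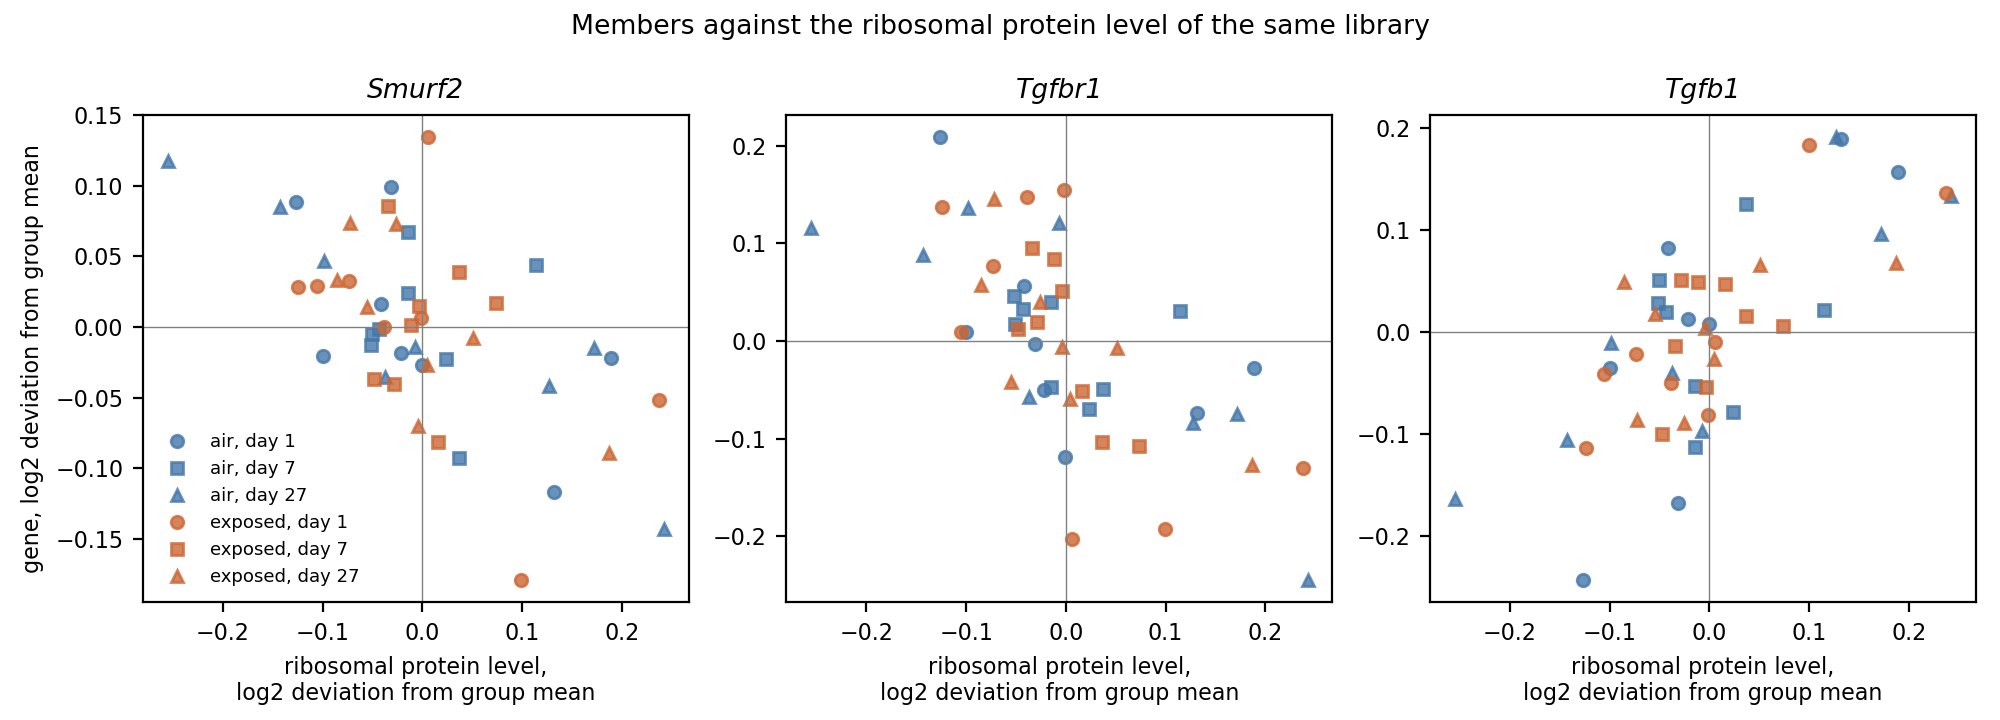
Deviation of Smurf2, Tgfbr1 and Tgfb1 from their group mean (vertical axes, log2 CPM) against the deviation of the ribosomal protein level in the same library (horizontal axes, log2 CPM). Each point is 1 of 48 libraries, coloured by exposure and shaped by day. Smurf2 and Tgfbr1 slope downwards (r = -0.60 and -0.68) and Tgfb1 upwards (r = 0.71).

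Smurf1, the close relative that was first described on the BMP branch, differed less. Air libraries had lowest, median and highest levels of 81.0, 91.6 and 103 CPM at day 1, 84.9, 91.0 and 94.3 CPM at day 7 and 75.4, 85.7 and 94.3 CPM at day 27. Exposed libraries had 85.6, 90.8 and 92.6 CPM at day 1, 84.1, 97.4 and 103 CPM at day 7 and 80.3, 93.3 and 102 CPM at day 27. The groups overlapped at every day. Exposed against air, Smurf1 stood at -0.01 ± 0.045 at day 1 and 0.09 ± 0.040 at day 7, neither passing (edgeR adjusted p = 0.984 and 0.558). At day 27 it was 0.13 ± 0.058 higher, with 4 of 8 exposed libraries above the highest air library. With the ribosomal protein level as a covariate that value was 0.01. No change of Smurf1 between days passed in air or in exposed lungs.

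Of the receptors, Tgfbr1 came next to Smurf2 in size at day 27. Tgfbr1, the type 1 receptor kinase, had lowest, median and highest levels of 102, 109.7 and 128 CPM in air lungs and 112, 132 and 143 CPM in exposed lungs at day 1. At day 7 these were 123, 132 and 134 CPM in air and 128, 139 and 147 CPM in exposed lungs, and at day 27 91.1, 109 and 119 CPM in air and 118, 128 and 142 CPM in exposed lungs. At days 1 and 27 the air mean was exceeded in 8 of 8 exposed libraries, and the groups still overlapped at each day, by 1 exposed library at day 27. Exposed against air, the log2 change was 0.22 ± 0.062 at day 1, the member nearest to the threshold on that day (edgeR adjusted p = 0.327). It was 0.09 ± 0.036 at day 7 (edgeR adjusted p = 0.508) and 0.25 ± 0.055 at day 27. With the ribosomal protein level as a covariate the day 27 value was 0.09. In air lungs Tgfbr1 rose by 0.22 ± 0.052 from day 1 to day 7 (edgeR adjusted p = 0.00943) and fell by 0.26 ± 0.053 from day 7 to day 27 (edgeR adjusted p = 0.000171). The fall uses the day 27 air libraries, and Tgfbr1 varied with Smurf2 from library to library (below). Its p is therefore not independent of how the genes were chosen.

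Tgfbr2, the ligand-binding type 2 receptor, had lowest, median and highest levels of 207, 252.9 and 267.7 CPM in air and 198, 277.1 and 293.5 CPM in exposed lungs at day 1. At day 7 it had 265.8, 282.6 and 302 CPM in air and 251.7, 277.05 and 294.01 CPM in exposed lungs, and at day 27 192, 241 and 281.3 CPM in air and 224, 248.9 and 261.7 CPM in exposed lungs. Of the exposed libraries at day 1, 7 of 8 lay above the highest air library and 1, at 198 CPM, below the lowest. The change at day 1 was 0.14 ± 0.072 and did not pass (edgeR adjusted p = 0.591), nor did -0.03 ± 0.033 at day 7 (edgeR adjusted p = 0.824). At day 27 it was 0.06 ± 0.064. In air lungs Tgfbr2 rose by 0.21 ± 0.060 from day 1 to day 7 (edgeR adjusted p = 0.0257) and fell by 0.26 ± 0.060 from day 7 to day 27 (edgeR adjusted p = 0.000684), in the same directions as Tgfbr1. The first of these passed in 44 of 48 fits that left out 1 library.

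Among the ligands, exposure was followed by no called change at days 1 and 7, while Tgfb2 and Tgfb3 fell with time in air and in exposed lungs. Tgfb3, a ligand of developing and mesenchymal tissue, had lowest, median and highest levels in air lungs of 31.9, 35.2 and 40.7 CPM at day 1, 25.8, 29.7 and 30.5 CPM at day 7 and 22.4, 26.5 and 29.6 CPM at day 27. In exposed lungs it had 29.3, 36.6 and 43.0 CPM at day 1, 28.6, 32.0 and 36.5 CPM at day 7 and 19.9, 24.4 and 27.1 CPM at day 27. In both arms every library at day 27 lay below every library at day 1. The share of all genes that separate so between these days was not computed, so nothing is read from this separation. Over the same days 17.6% of all genes were called in air lungs and 11.5% in exposed lungs. From day 1 to day 27 Tgfb3 fell by 0.46 ± 0.071 in air lungs (edgeR adjusted p = 8.17e-06) and by 0.58 ± 0.071 in exposed lungs (edgeR adjusted p = 6.48e-08). In air lungs it had fallen by 0.29 ± 0.070 by day 7 (edgeR adjusted p = 0.0103). Exposed against air it stood at 0.01 ± 0.078 at day 1, 0.16 ± 0.058 at day 7 (edgeR adjusted p = 0.980 and 0.470) and -0.11 ± 0.070 at day 27.

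Tgfb2, a ligand made by epithelium and mesenchyme, had lowest, median and highest levels in air lungs of 109, 121 and 132 CPM at day 1, 103, 124 and 136 CPM at day 7 and 89.3, 105 and 112 CPM at day 27. In exposed lungs it had 114, 121 and 144 CPM, 122, 127 and 134 CPM, and 93.4, 105 and 121 CPM at the same days. It fell between days 7 and 27, by 0.28 ± 0.055 in air lungs (edgeR adjusted p = 0.000111) and by 0.25 ± 0.054 in exposed lungs (edgeR adjusted p = 0.00154). Exposed against air, its changes were 0.03 ± 0.051, 0.04 ± 0.043 and 0.06 ± 0.062 at days 1, 7 and 27, and the first pair did not pass (edgeR adjusted p = 0.908 and 0.831). Tgfb1, the main ligand of macrophages, platelets and injured lung, was between 70.7 and 96.4 CPM in all 48 libraries. Exposed against air it stood at 0.00 ± 0.059, 0.04 ± 0.037 (edgeR adjusted p = 0.996 and 0.810) and -0.10 ± 0.051 at days 1, 7 and 27, with 8 of 8 exposed libraries below the air mean at day 27. With the ribosomal protein level as a covariate the day 27 value was 0.04. No change of Tgfb1 between days passed in either arm.

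Smad3, the receptor-activated transcription factor, was the steadiest of the Smads at 68.8 to 86.2 CPM over all libraries. Exposed against air it stood at -0.03 ± 0.044, 0.04 ± 0.048 (edgeR adjusted p = 0.872 and 0.881) and 0.05 ± 0.034 at days 1, 7 and 27. Smad7, the inhibitory Smad that docks the Smurfs on the receptor, had lowest, median and highest levels at day 1 of 161, 168 and 179 CPM in air and 137, 154 and 175 CPM in exposed lungs. At day 7 they were 152, 156 and 164 CPM in air and 149, 168 and 188 CPM in exposed lungs, and at day 27 135, 150.0 and 179.6 CPM in air and 146, 162 and 182 CPM in exposed lungs. Exposed libraries were thus mostly below the lowest air library at day 1, 7 of 8, and mostly above the highest at day 7, 6 of 8. Neither difference passed, at -0.13 ± 0.044 and 0.11 ± 0.040 (edgeR adjusted p = 0.403 and 0.466), nor did the difference between them, 0.24 ± 0.067 (edgeR adjusted p = 0.369). At day 27 Smad7 stood at 0.11 ± 0.057.

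Smad6, the inhibitory Smad of the BMP branch, spread more widely within groups. In air lungs its lowest, median and highest levels were 98.6, 117 and 146 CPM at day 1, 92.1, 102 and 112 CPM at day 7 and 101, 130.0 and 154 CPM at day 27. In exposed lungs they were 96.2, 99.0 and 125 CPM, 94.4, 109 and 129 CPM, and 109, 127 and 146 CPM at the same days. Exposed against air it stood at -0.18 ± 0.085 at day 1 and 0.13 ± 0.062 at day 7, neither passing (edgeR adjusted p = 0.568 and 0.584), and at -0.01 ± 0.074 at day 27. In air lungs Smad6 rose by 0.34 ± 0.079 from day 7 to day 27 (edgeR adjusted p = 0.000682). In exposed lungs it rose by 0.28 ± 0.078 from day 1 to day 27 (edgeR adjusted p = 0.0122). Smad7 fell by 0.15 ± 0.047 from day 1 to day 27 in air lungs (edgeR adjusted p = 0.0218).

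**Figure D3:**
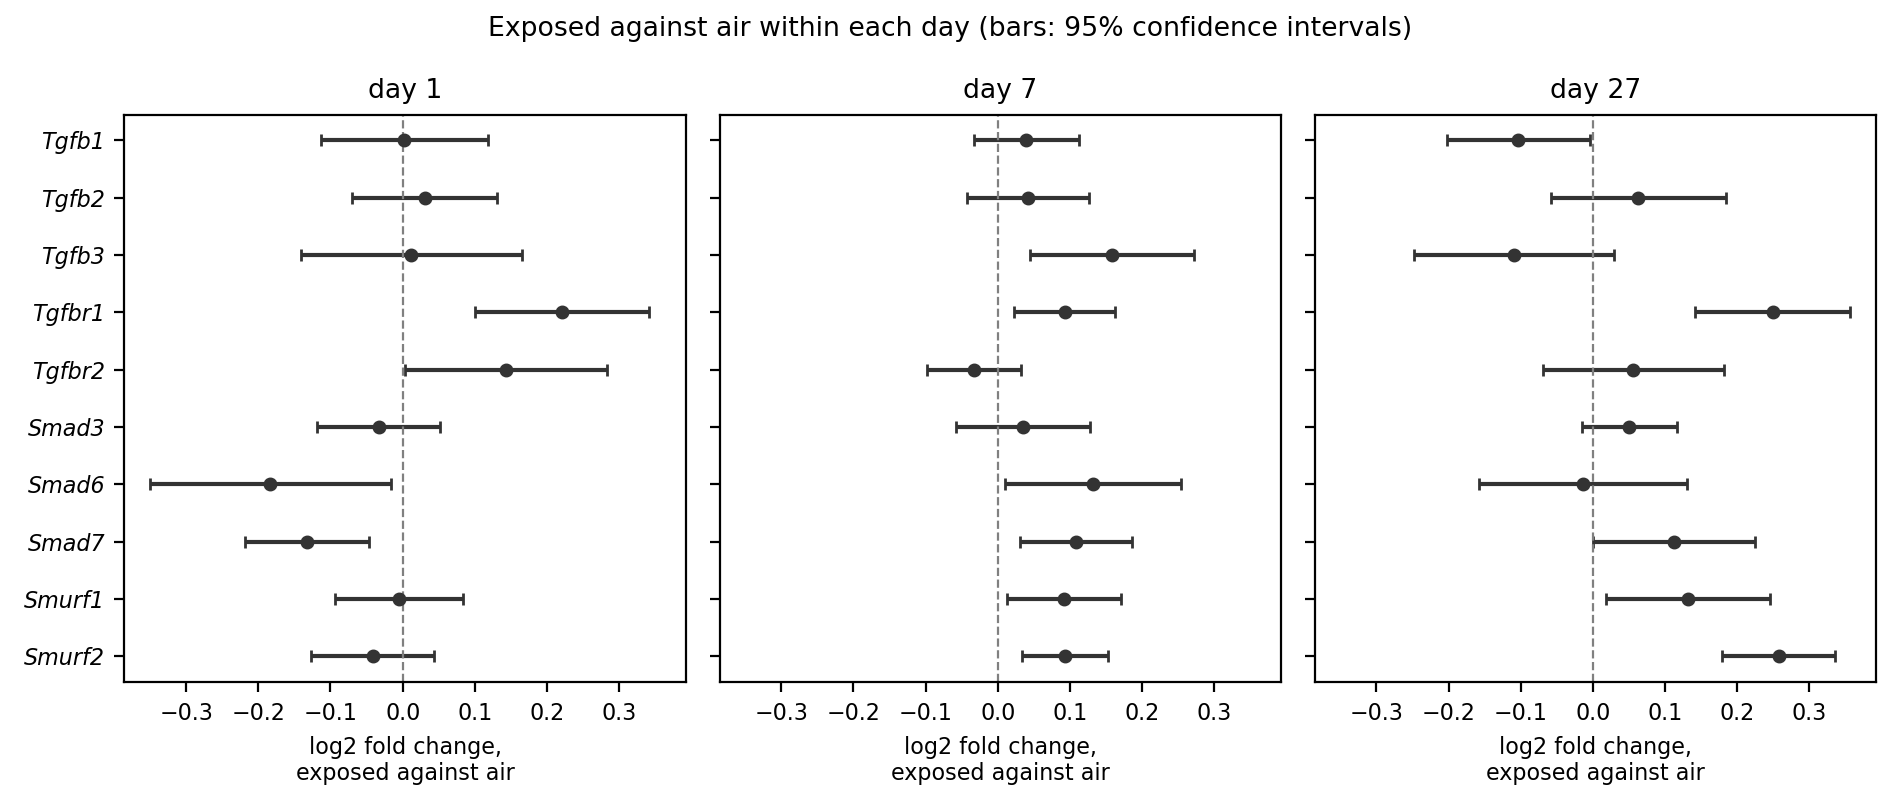
Log2 fold change of exposed against air lungs (horizontal axis) for each member at days 1, 7 and 27, from 8 libraries per group. Points are edgeR estimates and bars approximate 95% confidence intervals. At day 7, 9 of 10 points lie above 0, and at day 27 Smurf2 (0.26) and Tgfbr1 (0.25) lie farthest to the right.

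Counted over the 10 members, none was called at day 1, where 0.0279% of all genes were called (1241 genes had an unadjusted p under 0.05), and none at day 7, where 0.00% were (1208 genes). The median log2 change of the members was 0.00 at day 1 and 0.09 at day 7, beside 0.00 for all genes at both days. At day 27, the contrast on which the genes were chosen, 2 of 10 members (Smurf2 and Tgfbr1) and 5.52% of all genes passed the same threshold, and nothing is read from that count. No member was called for the exposure effect at day 7 minus day 1, where 0.00% of genes were. With DESeq2 no member was called at day 1 or 7 either. When single libraries were left out at day 27, the log2 change ran from 0.24 to 0.28 for Smurf2 and from 0.22 to 0.27 for Tgfbr1. With the closest air pair summed, 31 genes of 14255 were called at day 27 in place of 783 of 14192.

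In air lungs 3 of 10 members were called between days 1 and 7 (8.32% of all genes), 4 between days 1 and 27 (17.6%) and 5 between days 7 and 27 (39.7%). In exposed lungs it was 1, 4 (11.5%) and 2 (12.1%). Smurf2 is in the counts of day 27 against day 1 in both arms and of day 27 against day 7 in air lungs, and for it nothing is read from them. Contrasts with day 27 use the same libraries as the exposure comparison of that day, so their p-values for any member are not independent of how the genes were chosen. Each day was deposited as a table of its own, so time after exposure, age and any processing by day cannot be told apart. The ribosomal protein level given above also differed by day, with air means of 8.13, 7.98 and 8.41 at days 1, 7 and 27, and its part in these changes was not tested.

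With group means removed, 10 of the 45 pairs of members varied together over the 48 libraries, 6 in the same direction and 4 in opposite ones. Smurf2 and Tgfb1 were the most strongly opposed, with Pearson's r = -0.69 and Spearman's rho = -0.61. The permutation p was 1e-05 for r, the smallest that 100000 resamples can give, and 6e-05 for rho. Adjusted over the 45 pairs these were 0.00045 and 0.0027. Without the 2 libraries farthest from the Smurf2 median r was -0.64, and within days 1, 7 and 27 it was -0.76, -0.46 and -0.71. Tgfb1 was likewise opposed to Tgfbr1 (r = -0.61, rho = -0.56, permutation p = 6e-05, adjusted 0.00135), with -0.07 within day 7. It was also opposed to Tgfbr2 (r = -0.49, rho = -0.45, permutation p = 0.00315, adjusted 0.0195), with -0.24 within day 7.

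Smurf2 varied in the same direction as Tgfbr1 (r = 0.54, rho = 0.57, permutation p = 0.00071, adjusted 0.00821), and r was 0.37, 0.31 and 0.84 within days 1, 7 and 27. Without the 2 libraries farthest from the Smurf2 median it was 0.40. Smurf2 and Smurf1 gave r = 0.48 and rho = 0.49 (permutation p = 0.00073, adjusted 0.00821), also positive within each day. Smurf2 and Tgfbr2 gave r = 0.52 and rho = 0.50 (permutation p = 0.0035, adjusted 0.0195), but -0.21 within day 7. The inhibitory pair Smad6 and Smad7 gave r = 0.47 and rho = 0.45 (permutation p = 0.00167, adjusted 0.015), but -0.31 within day 7. Tgfb3 and Tgfbr1 were opposed (r = -0.47, rho = -0.42, permutation p = 0.0039, adjusted 0.0195), but not within day 7 (0.18). The remaining 2 pairs, Tgfbr1 with Tgfbr2 (r = 0.49) and Smurf1 with Tgfbr1 (r = 0.37), kept a positive sign within each day. All 10 pairs also passed by rho.

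The ribosomal protein level varied with 5 of the 10 members, in the opposite direction for all of them but Tgfb1. Beside Smurf2 these were Tgfbr2 (r = -0.74), Tgfbr1 (r = -0.68), Smurf1 (r = -0.48) and Tgfb1 (r = 0.71). Their permutation p, adjusted over the 10 members, was 5e-05, 6.67e-05, 0.00178 and 5e-05. Within days 1, 7 and 27 r was 0.79, 0.17 and 0.81 for Tgfb1, and it was negative at each day for Tgfbr2, Tgfbr1 and Smurf1. With that level removed as well, a step added after seeing the data, 3 of the 45 pairs passed: Smurf2 with Tgfb1 at r = -0.46, Tgfb3 with Tgfbr1 at -0.51, and Smad6 with Smad7 at 0.50, each with an adjusted permutation p of 0.024. Smurf2 with Tgfbr1 was then at 0.21, Smurf2 with Tgfbr2 at 0.13 and Tgfbr1 with Tgfbr2 at -0.03.

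**Figure D4:**
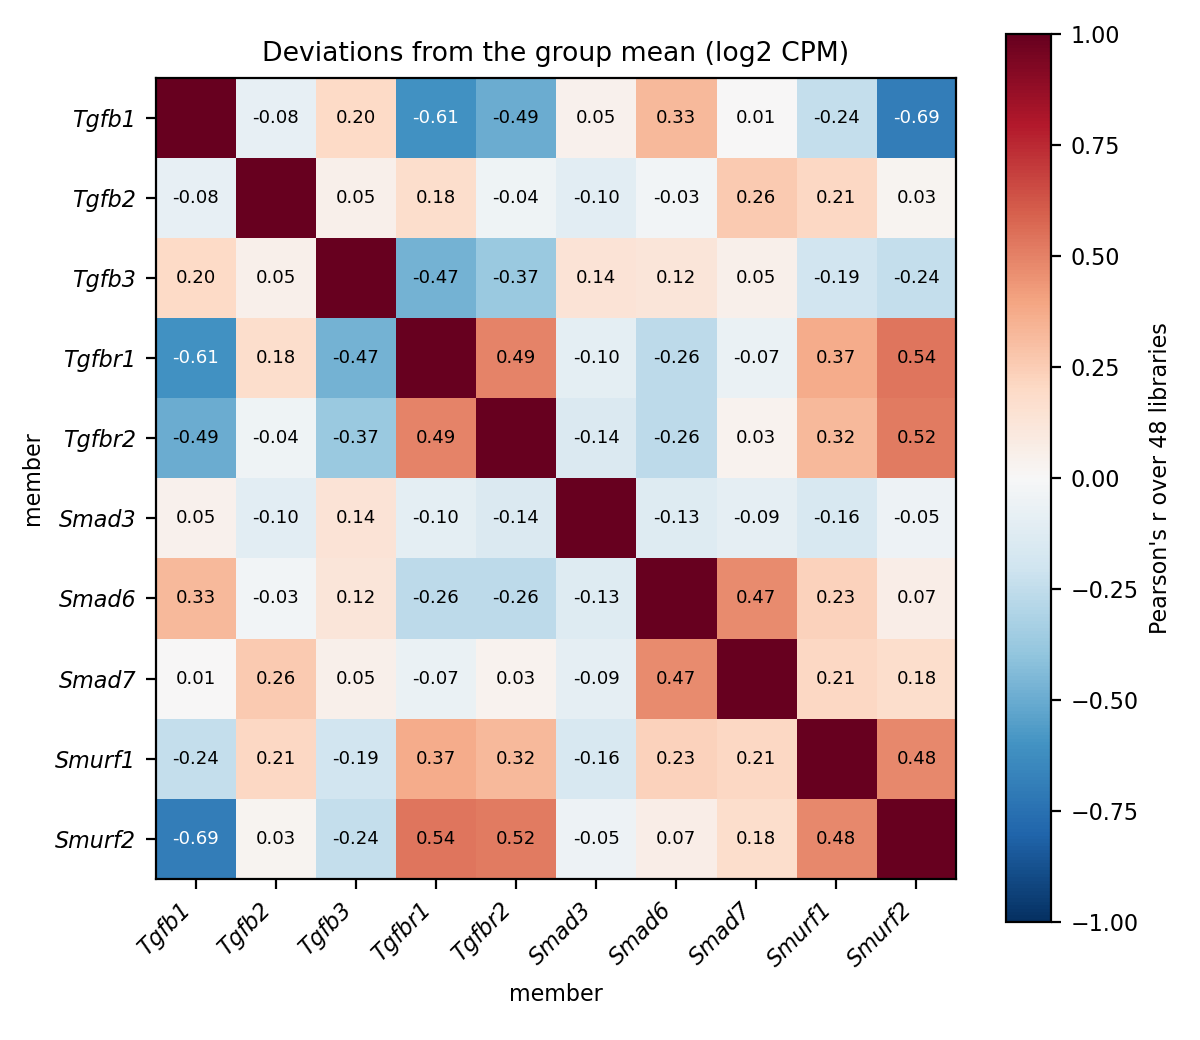
Pearson's r between each pair of members over 48 libraries, on log2 CPM with the group mean subtracted, red for positive and blue for negative values. Smurf2, Smurf1, Tgfbr1 and Tgfbr2 form a positive block, in which Smurf1 with Tgfbr2 (0.32) did not pass. With the ribosomal protein level removed no pair of this block passed. The Tgfb1 row is negative against Smurf2 (-0.69), Tgfbr1 (-0.61) and Tgfbr2 (-0.49).

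Among 11752 genes ranked by the same measure over the 48 libraries, those most like Smurf2 included Creb1 (r = 0.82), a transcription factor activated by cyclic AMP signalling, Bdp1 (0.79), a subunit of an initiation factor of RNA polymerase III, Rock1 (0.78), a kinase that acts on the cytoskeleton, and Prdm11 (0.78). These are ranks without a test. The gene most like each other member was Clock for Tgfbr1 (r = 0.80), Atp8a1 for Tgfbr2 (0.88), Psap for Tgfb1 (0.78), Pgm2 for Tgfb2 (0.56), Col1a1 for Tgfb3 (0.64), Ankmy2 for Smad3 (0.60), Caskin2 for Smad6 (0.79), Itga5 for Smad7 (0.60) and Ipmk for Smurf1 (0.75).

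Of the other pathway genes in the lists, 90 in number, 87 passed the low-count filter at day 1 and 86 at days 7 and 27. None was called for exposure at day 1 or day 7 (lowest edgeR adjusted p = 0.377 and 0.305). At day 27, 2 of 86 were called, beside 5.52% of all genes, so the count does not set these genes apart. Both were higher in exposed lungs: Nedd4, the founding member of the ligase family of the Smurfs, and Usp9x, a deubiquitinase that acts on Smad4. Nedd4 had lowest, median and highest levels of 882, 1040.0 and 1155 CPM in air and 1072, 1166 and 1269 CPM in exposed lungs, a log2 change of 0.18 ± 0.051 (edgeR adjusted p = 0.0446). Usp9x had 245, 304 and 366 CPM in air and 328, 377 and 406 CPM in exposed lungs, a change of 0.26 ± 0.069 (edgeR adjusted p = 0.0407). For both genes the groups overlapped. Neither was called with the closest pair summed or with the ribosomal protein level as a covariate, and the count of 2 ran from 0 to 16 when single libraries were left out. It was 16 without air library 2, 12 without exposed library 2, 7 without air library 4 and 6 without air library 1. It was 0 without air library 3, 5, 6, 7 or 8 or exposed library 1, 3, 5, 6, 7 or 8. The share of all genes called in each of these fits is not given here, so nothing about the pathway genes is read from these counts.

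Of the other Nedd4-family ligases at day 27, Wwp1 stood at 0.33 ± 0.098, Itch at 0.30 ± 0.10, Nedd4l at 0.15 ± 0.058, Hecw2 at 0.47 ± 0.16 and Wwp2 at 0.00 ± 0.048, none of which passed (edgeR adjusted p = 0.0573, 0.0796, 0.111, 0.0912 and 0.982). The list of other Smads held 6 genes. Smad1, Smad2, Smad4, Smad5 and Smad9 carry the signal with Smad3 or on the BMP branch, while Zfyve9 is not a Smad. All 6 lay above 0 at day 27 with a median of 0.17, and none was called. Among all genes at that day more lay below 0 than above. Whether the 6 genes differ from other genes in direction was not tested. Standard targets of the pathway showed no called change. At days 1, 7 and 27, Ccn2, a matricellular growth factor listed in the files under its older name Ctgf, stood at -0.05 ± 0.16, -0.13 ± 0.10 and -0.10 ± 0.16. Skil, a Smad co-repressor, was at 0.33 ± 0.11 at day 27 (edgeR adjusted p = 0.0849). Of the 21 genes of the TGF-beta induced list, which holds Smad7 too, 21 were tested at day 1 and 20 at days 7 and 27. None of those tested was called for exposure at any day, and their medians were 0.01, 0.02 and 0.03.

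The same list changed with time in air lungs. From day 1 to day 27, 11 of its 21 genes fell and none rose, where 8.45% of all genes fell. The median was -0.32, and Smad7 is among the 11. Col1a1, the main fibrillar collagen chain, fell by 1.23 ± 0.098 (edgeR adjusted p = 5.64e-13) and Eln, elastin, by 1.26 ± 0.11 (edgeR adjusted p = 6.58e-12). Eln had lowest, median and highest levels of 1288, 1904 and 2190.1 CPM in air lungs at day 1 and 561, 796 and 921 CPM at day 27. In the list of latent TGF-beta binding and activation, 5 of 15 genes fell and none rose over the same days, with Fbn1, the microfibril protein that holds latent ligand, down by 0.82 ± 0.069 (edgeR adjusted p = 1.49e-12). In exposed lungs 11 of the 21 induced genes fell from day 1 to day 27, where 5.65% of all genes fell, and 1 rose. The summed level of the fibroblast marker list ran from 1898 to 2391 CPM in air lungs at day 1 and from 1229 to 1440.1 CPM at day 27. Col1a1 and Col1a2 belong to this list and to the induced list, so the sum is not a separate measure of fibroblasts. Nor did each gene of the list follow the sum. Dcn had lowest, median and highest levels in air lungs of 94.7, 123.1 and 146.6 CPM at day 1 and 83.0, 128.0 and 178.3 CPM at day 27. The part of fibroblasts in these changes was not tested.

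Markers of other cell types at day 27 are set beside the exposure values for the same reason. Of 4 club cell markers none was called and all lay below 0, with summed levels of 7844.5 to 11627 CPM in air and 3457 to 8866 CPM in exposed lungs. The fibroblast list ran from 1229 to 1440.1 CPM in air and from 1197 to 1435 CPM in exposed lungs, with 1 of 5 genes called, Pdgfra, which was higher, while the other 4 lay below 0. In the smooth muscle list, 471 to 917 CPM in air and 739 to 863 CPM in exposed lungs, none of 5 was called. In the lists of endothelial cells, ciliated cells, alveolar macrophages and B and plasma cells 1 gene each was called, all lower: Tie1, Tppp3, Cidec and Cd79a. In the same lists 1 of 4 endothelial, 1 of 3 ciliated, 0 of 3 macrophage and 1 of 5 B and plasma cell genes tested lay above 0. Of all genes, 5.52% were called at that day. Pdgfra, Tie1, Tppp3, Cidec and Cd79a are named after their values were seen. Macrophage markers summed to 152 to 297 CPM in air and 158 to 198 CPM in exposed lungs. The part of these cell types in the Smurf2 and Tgfbr1 values was not tested.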

How the data were processed

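Polyadenylated RNA of 48 lungs was sequenced. Per the submitters' processing notes, the build was Rnor_6.0 and the tools Salmon 1.10.1, STAR 2.6.1d, Trim Galore 0.6.7, cutadapt 3.4 and bcl2fastq 2.19, whose settings are not given in the sources used here. The values the authors deposited are expected counts, estimated fragments per gene without normalization, in 3 tables, 1 per day. They were rounded to whole numbers, and the members' values were already whole in all 48 libraries. Of the 2 identifiers named Tgfbr1, the other had 0 counts.

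Exposed and air lungs were compared within a day by edgeR 4.0.16 under R 4.3.3 (TMM, filterByExpr, robust quasi-likelihood F test, Benjamini-Hochberg adjustment over all genes, threshold 0.05). Contrasts between days came from 1 fit of all 48 libraries. Day 27 exposure values of the members carry no p because the members were chosen on that contrast. CPM used TMM factors, and log2 CPM a prior count of 2. Correlations used permutations within groups. The gene most like a member was sought among genes with a mean of at least 5 CPM. Some genes that the rule would name are not reported here. Of each pathway list, at most 4 called genes per day were to be named, by smallest p, beside 10 members, Nedd4-family genes and standard targets. The members and lists were chosen with earlier results of these data known. Lung cell types were followed by 15 marker lists.

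Alternatives were RLE size factors, DESeq2 1.42.0, limma-voom (limma 3.58.1), no filter or a minimum mean of 1 CPM, a single fit of all 48 libraries, the log2 total count as a covariate, 1 surrogate variable (sva 3.50.0), the closest pair summed, and each library left out. The ribosomal protein level was added after seeing the data, as were averaged pairs in the correlations and the contrasts between exposed groups. The steps were tested on simulated counts: for day 1 (14314 genes) edgeR found 38% of the 1.25-fold changes, for day 7 (14259 genes) 49% and for day 27 (14192 genes) 39%. For 1.5-fold changes it was 77%, 68% and 73%.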

Additional observations from a re-analysis of the deposited data

Results flagged for a closer look

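In the 60 groups of 8 libraries (10 members, 6 groups), 3 held a library far from the others, where chance flags about 1 in 20. Tgfb2 in air lungs at day 7 was at 103 CPM in library 6, with the nearest library at 123 CPM. Tgfb3 in air lungs at day 7 was at 25.8 CPM in library 5, with the nearest at 28.8 CPM. Without that library, 8 of 10 members in place of 5 were called between air days 7 and 27. Tgfbr2 in exposed lungs at day 1 was at 198 CPM in library 8, with the nearest at 268.7 CPM.

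For Smurf2, the log2 change of exposed against air at day 27 minus that at day 1 was 0.30 ± 0.051, from -0.04 at day 1 to 0.26 at day 27. The genes were chosen on the day 27 value, so this is a description and not a test of a difference between days. At day 7 minus day 1, which does not use that value, the difference did not pass (edgeR adjusted p = 0.542).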

How the results depend on the processing

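No called value of a member turned direction under any alternative. At day 27, where 2 members and 2 other pathway genes were called, the alternatives gave 1 member with 1 surrogate variable, 1 with the closest pair summed and 0 with the ribosomal protein level as a covariate. For the other pathway genes they gave 0 with no filter and 14 with DESeq2, where 2.35% and 8.20% of all genes were called. All 48 libraries in one fit gave 19, where 15.0% of all genes were called. The count was 1 with 1 surrogate variable (0.500%), 0 with the closest pair summed (0.217%) and 0 with the ribosomal protein level as a covariate (0.0%). In the main fit the share of all genes was 5.52%, and nothing about the pathway genes is read from these counts. Leaving out single libraries gave 1 to 2 members and 0 to 16 other pathway genes, and the share of all genes called in those fits is not given here. The member count was 1 without air library 3, 6 or 8 or exposed library 3, 7 or 8. The members were chosen on this contrast, so their counts at day 27 describe it and support nothing. Between air days 1 and 7, DESeq2 called 5 members in place of 3, and leaving out single libraries gave 2 to 5, with 5 without library 1 or 8 of air day 1. Between air days 7 and 27 the range was 5 to 8, and between air days 1 and 27 it was 3 to 5. Of the 10 correlated pairs, 9 passed without the 2 farthest libraries, 10 with pairs averaged and 3 with the ribosomal protein level removed. The cause of these changes was not tested.

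No paired analysis was possible because the labels give each rat its own number and pair none across groups. At this depth the simulations missed many small changes, so a member that did not pass is not shown to be unchanged.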
